A study of Mus musculus with 3 samples.

Results

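Early thymocytes are blood-derived cells that have entered the thymus and started, without yet finishing, the T cell programme. They were taken here as cells with at least 1 transcript (UMI, a molecule counted once by its barcode) of Ptprc, the CD45 antigen of blood cells, none of Epcam or C1qa (epithelial and macrophage genes), UMIs of at least 3 of the 4 T lineage genes Cd3g, Cd3d, Cd3e and Lck, and UMIs of fewer than 3 of the 5 innate lymphoid or mast cell genes Ccl5, Klrd1, Gzmb, Cd7 and Cpa3. Of 16365 cells kept over the 3 libraries, 154 met the rule: 135 of 4962 in the control, 14 of 3579 in Tbx1neo2/neo2 and 5 of 7824 in Foxn1 1089/1089. These 12 genes chose the cells, so their levels are given as a description only.

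The libraries were single-cell 3' RNA libraries of mouse fetal thymic lobes, dissected at embryonic day 13 to 13.5 on a C57BL/6 background and dissociated with trypsin. The control was labelled wild type. Tbx1neo2/neo2 embryos are homozygous for a Tbx1 allele with a neomycin cassette inserted in an intron, which lowers the dose of this pharyngeal transcription factor, and Foxn1 1089/1089 embryos are homozygous for a short deletion in the coding sequence of Foxn1, the transcription factor of thymic epithelium. Both alleles are germline, so blood cells carry them too. Each genotype was 1 library, and the number and sex of the embryos in it were not given in the sources used here, so genotype and library cannot be told apart and no test between genotypes was possible. Kept cells had a median of 14838 UMIs in the control, 29096 in Tbx1neo2/neo2 and 17144 in Foxn1 1089/1089. Foxn1 transcripts stood at 88.1, 107 and 153 CPM (UMIs scaled to a total of 1000000) in epithelial cells of the 3 libraries and at 2, 3 and 0 UMIs in early thymocytes. Epithelial cells were taken as those with Epcam, at least 3 of Krt8, Krt18, Pax1, Foxn1 and Sfn, and no Ptprc. Foxn1 thus helped to choose them. Counts from the 3' end do not show whether the deletion is present. Between 17 and 28 barcodes were shared by any pair of libraries, and none of them was an early thymocyte.

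In the fetal thymus, progenitors from the blood are drawn in by chemokines such as Ccl25, which binds Ccr9, and meet Notch ligands on the epithelium. Notch signalling induces the factors Tcf7 and Gata3 and later Bcl11b, which closes off other fates. The cells pass from a Kit-bearing stage (DN1, with neither Cd4 nor Cd8) to stages that carry Il2ra (DN2 and DN3), where Rag1 and Rag2 cut the T cell receptor genes and Ptcra, the surrogate alpha chain, pairs with a rearranged beta chain. The first waves of fetal T cells include gamma-delta cells, and innate lymphoid cells arise beside them under factors such as Id2.

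Promoters of 3 genes of that pathway are shown because the genes were detected in control cells and had no UMI in the Foxn1 1089/1089 cells (values are given with the results). Each sequence is the 250 bases before the start of the gene in RefSeq (GRCm38.p6, minus strand, 5' to 3'), with capitals at TGGGAA or its reverse complement TTCCCA, the core letters bound by Rbpj, the DNA-binding partner of Notch. The regions are chr17:46763713-46763962 for Ptcra, chr2:101649533-101649782 for Rag1 and chr7:126369569-126369818 for Lat, which encodes an adaptor of T cell receptor signalling.
Ptcra: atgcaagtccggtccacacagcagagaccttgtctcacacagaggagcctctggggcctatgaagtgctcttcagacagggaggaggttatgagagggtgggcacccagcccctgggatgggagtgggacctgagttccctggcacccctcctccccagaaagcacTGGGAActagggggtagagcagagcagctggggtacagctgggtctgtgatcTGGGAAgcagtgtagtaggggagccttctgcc
Rag1: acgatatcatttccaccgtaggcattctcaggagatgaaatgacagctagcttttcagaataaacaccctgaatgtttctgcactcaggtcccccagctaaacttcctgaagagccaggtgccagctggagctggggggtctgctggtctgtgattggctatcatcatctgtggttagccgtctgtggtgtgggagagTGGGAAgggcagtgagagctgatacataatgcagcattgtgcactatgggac
Lat: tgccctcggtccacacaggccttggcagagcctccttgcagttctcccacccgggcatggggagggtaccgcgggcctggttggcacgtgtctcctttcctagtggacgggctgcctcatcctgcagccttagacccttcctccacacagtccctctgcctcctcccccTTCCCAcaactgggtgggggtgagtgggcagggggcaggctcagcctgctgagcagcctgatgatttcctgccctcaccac
The letters occurred 2 times before Ptcra, 1 time before Rag1 and 1 time before Lat. Of 32851 promoter windows of the same length, 21.6% held them at least once, so a match is common and describes these windows only.

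The label of early thymocytes was borne out by the control cells. Their 2720493 UMIs (median 20795 per cell, range 3423 to 34310) held 246 CPM of Tcf7 in the summed cells, 186 of Gata3 and 75.7 of Bcl11b. Il2ra stood at 92.6 CPM, Rag2 at 64.0, Ptcra at 57.0 and Rag1 at 39.7, and 115 of 135 cells had a UMI of at least 1 of these 4. Their levels in control cells without a Ptprc UMI were 5.70, 3.17, 3.61 and 1.08 CPM. Of 13 genes of double-positive and mature T cells, 7 had fewer than 30 UMIs over the early thymocytes of the 3 libraries, and in the control Cd4 and Cd8a had 1 UMI each and Cd8b1 none. Others of that list were present, with Cd69, an early activation antigen, at 112 UMIs (41.2 CPM), Themis, a regulator of thymocyte selection, at 70 and Klf2, a factor of thymic exit, at 39. Constant regions of the T cell receptor were not analysed here, since 0 of 8 matched a feature. The most abundant of the lymphoid genes was Gzma, a granzyme, at 5140 CPM and with a UMI in 126 of 135 cells. Ccr9 had 1 UMI in the whole control population.

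Markers of mesenchyme and epithelium were low in the summed cells. The 9 mesenchymal markers summed to 95.9 CPM in control early thymocytes, 51.6 in Tbx1neo2/neo2 and 22.1 in Foxn1 1089/1089, against 2153 to 4839 CPM in cells without Ptprc of the same libraries. The 9 epithelial markers summed to 90.8, 27.4 and 14.7 CPM, against 1826 to 3693 CPM. Krt18, a keratin among them, had 129 UMIs (47.4 CPM) in the control, unevenly spread between cells. Thinned to 10000 UMIs, the highest control cell held 51 and the median was 0. Of the endothelial markers, Pecam1 stood at 27.9, 52.7 and 80.9 CPM and Egfl7 at 49.6, 23.1 and 29.4 CPM. Esam had 9, 10 and 0 UMIs, and Cdh5, Kdr, Tek and Cldn5 had at most 1 UMI each in any library. The 7 macrophage markers summed to 9.56, 50.5 and 58.8 CPM, and C1qa was at 0 by the rule. The lymphoid gene Gzma stood at 199 CPM in control cells without Ptprc but at 5.28 and 3.74 CPM in those of the mutant libraries, and the part of free RNA in these levels was not tested.

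Early thymocytes were a smaller share of both mutant libraries. They made up 2.72% of kept control cells (95% exact binomial interval 2.29 to 3.21), 0.391% of Tbx1neo2/neo2 cells (0.214 to 0.655) and 0.0639% of Foxn1 1089/1089 cells (0.0208 to 0.149). The Tbx1neo2/neo2 share was 0.144 times the control's (exact interval 0.0766 to 0.2497) and the Foxn1 1089/1089 share 0.0235 times (0.00751 to 0.0562). Among Ptprc cells without Epcam or C1qa the shares were 16.3%, 7.65% and 1.84%, ratios to the control of 0.469 (0.2498 to 0.815) and 0.113 (0.0360 to 0.270). All intervals here cover counting error only, not the spread between embryos. Those of gene levels, given below, do not cover the spread between cells either. Fewer thymocytes and more of the other cells give the same share.

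The size of the Tbx1neo2/neo2 difference depended on the gate and on the UMIs per cell at which it was read. Of cells with Ptprc, at least 3 T markers and fewer than 3 innate genes, 155 of 290 in the control, 51 of 65 in Tbx1neo2/neo2 and 8 of 14 in Foxn1 1089/1089 carried an Epcam UMI and so were left out. Among cells with Ptprc, T markers and neither Epcam nor C1qa, the innate gene limit removed 94 of 229, 48 of 62 and 13 of 18. Early thymocytes of Tbx1neo2/neo2 held more UMIs, with a median of 70042 (19061 to 100451). At 2000 UMIs per cell the innate limit removed 4.80%, 16.1% and 27.8% of the T marker cells (control, Tbx1neo2/neo2, Foxn1 1089/1089), in place of 41.0%, 77.4% and 72.2%. With both limits left out, the shares were 8.87%, 5.78% and 0.486%, so that the ratio to the control was 0.652 (0.550 to 0.771) in Tbx1neo2/neo2 and 0.0548 (0.0382 to 0.0764) in Foxn1 1089/1089. When every kept cell was first thinned at random to 2000 UMIs, 10 control cells (0.202%), 6 Tbx1neo2/neo2 cells (0.168%) and no Foxn1 1089/1089 cell met the rule. A count of 0 among the 7824 cells allows a share of up to 0.0383%.

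**Figure D1:**
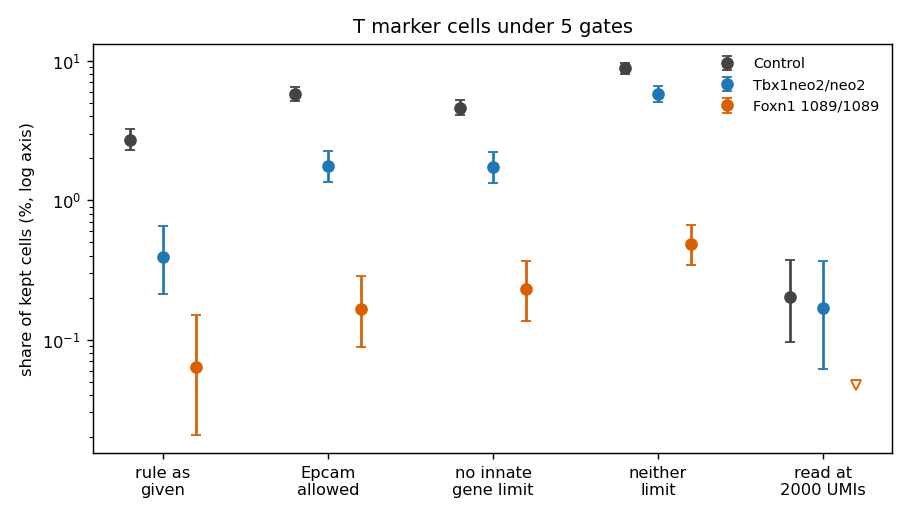
Share of kept cells (percent, log axis) that met the rule as given, the rule with Epcam UMIs allowed, without the innate gene limit, without either limit, and with the rule read after thinning to 2000 UMIs. Bars are 95% exact binomial intervals and the open triangle is the upper bound for 0 cells. The control lay above Foxn1 1089/1089 under the 4 unthinned gates, while the interval of Tbx1neo2/neo2 overlapped the control's at 2000 UMIs.

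The cells just inside and just outside the rule were as follows. In the control, 72 early thymocytes had 3 of the 4 T markers and 63 had all 4, and 76 further cells had 2. In Tbx1neo2/neo2 the numbers were 6, 8 and 12. All 5 Foxn1 1089/1089 cells had 3 of the 4, none had all 4, and 22 had 2. Most early thymocytes lay at the innate limit, with UMIs of 2 of the 5 genes in 82 of 135, 13 of 14 and 4 of 5 cells. Just beyond it, 84, 37 and 8 cells had 3 innate genes. By Scrublet score, a measure of likeness to simulated cell pairs, 5 control early thymocytes ranked among the likely doublets, and none of the mutant ones did. Of all kept cells, 245 of 4962, 148 of 3579 and 718 of 7824 ranked so. With 14 and 5 mutant cells, a count of none says little.

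The 5 Foxn1 1089/1089 cells held few or no transcripts of Il2ra, Ptcra, Rag1 and Rag2. Their UMI totals were 17410, 21047, 21846, 28118 and 47623, and over their sum 3 counts correspond to 22.1 CPM. Il2ra, the alpha chain of the interleukin-2 receptor (chromosome 2, 11642807 to 11693193, mm10), and Rag2 had 1 UMI each, both in the deepest cell. Rag1, Ptcra and Lat had none. The sum of Il2ra, Ptcra, Rag1 and Rag2 was 2 UMIs or 14.7 CPM (exact Poisson interval 1.78 to 53.1), against 253 CPM (235 to 273) in the control, a ratio of 0.0580 (0.00702 to 0.210). It was 209 CPM (180 to 240) in Tbx1neo2/neo2, a ratio to the control of 0.823 (0.698 to 0.968), and 155 CPM, a ratio of 0.612, without the cell that held 60 of its 190 UMIs. The 4 genes were grouped with their values known. Set against 3 counts, Foxn1 1089/1089 was at least 5.48-fold lower than the control for Lat, 2.58-fold for Ptcra and 1.80-fold for Rag1. Bcl11b had 1 UMI in the 5 cells, a log2 ratio of -3.36 to the control (exact interval -8.68 to -0.87). By these 4 genes and Bcl11b the label of early thymocytes is not borne out in this library. A cell at the Kit-bearing DN1 stage could lack them too. The 5 cells are called here by their rule.

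Tcf7 and Gata3, which act before Bcl11b, were found in these 5 cells. Tcf7 UMIs per cell, from the shallowest to the deepest, were 4, 1, 2, 12 and 29, and the summed level was 353 CPM against 246 in the control (log2 ratio 0.52, 0.07 to 0.95). Without the deepest cell, which held 29 of the 48 UMIs, Tcf7 was at 215 CPM, below the control. Gata3 counts were 6, 4, 17, 4 and 11, giving 309 against 186 CPM (0.73, 0.24 to 1.18), or 219 CPM without the cell that held 17. All 5 cells had both. The T cell receptor complex genes that chose the cells were sparser, with Cd3g at 228 against 1100 CPM and Cd3e at 0 against 104 CPM. Gzma, at 2, 0, 31, 85 and 253 UMIs in the same order of depth, lay mostly in 1 cell, and its level was 2727 CPM with that cell and 1335 without it.

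Id2, Ikzf2, Cd160 and Tyrobp were higher in the Foxn1 1089/1089 cells. Id2, an inhibitor of E proteins that innate lymphoid cells need (chromosome 12, 25093799 to 25097140, mm10), had 17, 19, 20, 6 and 1 UMIs in the 5 cells, 463 CPM against 34.9 in the control and 75.7 in Tbx1neo2/neo2. In the control 98 of 135 cells had no Id2 UMI and 9 had 3 or more. Outside blood cells Id2 was high as well, at 394 CPM in Foxn1 1089/1089 cells without Ptprc and 93.8 CPM in control ones, while epithelial and mesenchymal markers stood at 14.7 and 22.1 CPM in the 5 cells. Ikzf2, which encodes the zinc finger factor Helios, had 27, 15, 6, 14 and 26 UMIs, or 647 against 107 CPM (log2 ratio 2.60, 2.24 to 2.94). Cd160, a receptor of natural killer and innate lymphoid cells, had 35 UMIs in 4 of 5 cells (257 CPM) and 68 UMIs in 40 of 135 control cells, a log2 ratio of 3.36 (2.73 to 3.97). These 4 genes are named because they were high here. The innate list stood at a median log2 ratio of 1.01 over 10 genes, which include these 4, so it is no separate evidence.

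Of the genes of MHC class I, which present peptides at the cell surface, 3 that were grouped with their values known stood higher in both mutant libraries. H2-K1, H2-D1 and B2m summed to 257, 617 and 1036 CPM (control, Tbx1neo2/neo2, Foxn1 1089/1089), 2.40 times the control (2.15 to 2.69) and 4.04 times (3.35 to 4.85). In Foxn1 1089/1089 1 cell, with 21047 UMIs, held 81 of the 141 UMIs, and without it the sum was 522 CPM, 2.03 times the control and below Tbx1neo2/neo2, which was at 606 CPM without the cell that held most of its own. In innate-like lymphoid cells the sums were 349, 622 and 1460 CPM. The whole MHC and interferon list had medians of -0.24 and 0.05 over 18 genes, with 13 and 8 of them below the control. Medians over all genes were 0.26 and 0.22. Of the other 15 genes of that list with enough UMIs, Tapbp, a peptide loading factor, stood at 25.4, 49.4 and 73.5 CPM. Psmb8, an immunoproteasome subunit, stood at 630, 411 and 559 CPM, and Ifitm1, an interferon-inducible membrane gene, at 7095, 4621 and 3866 CPM.

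**Figure D2:**
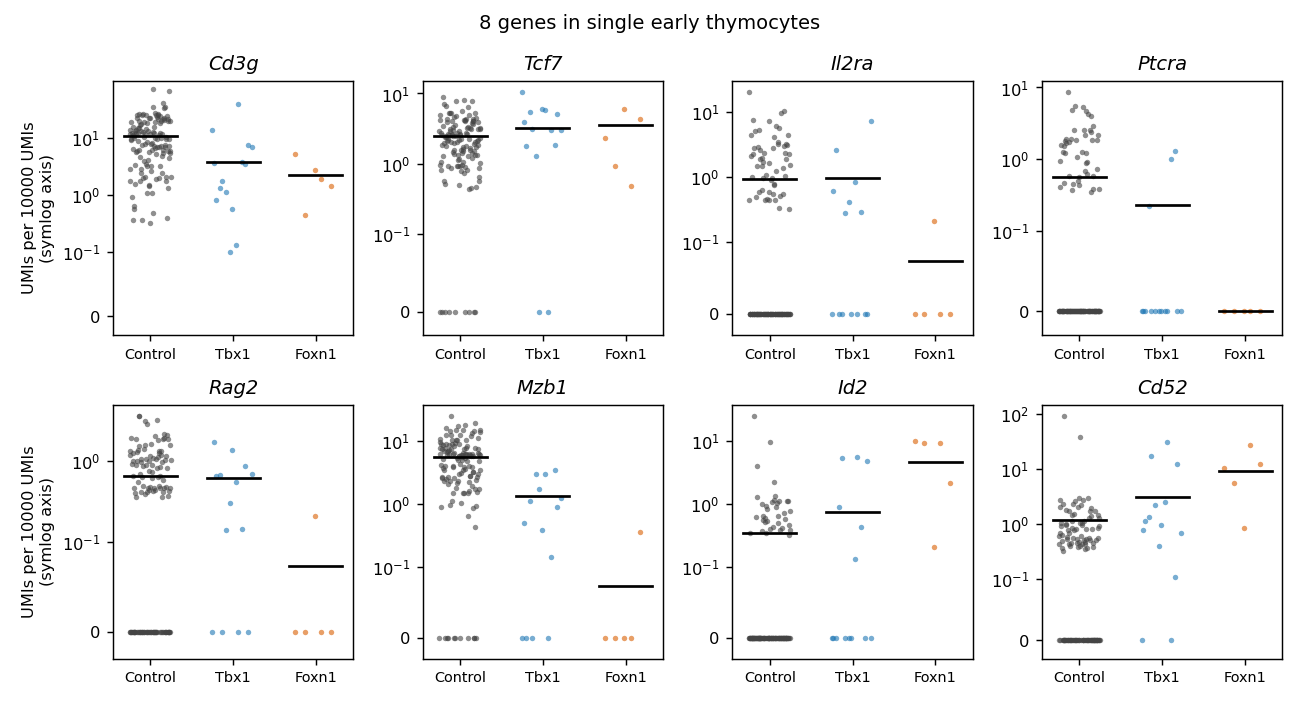
UMIs per 10000 UMIs of 8 genes in each early thymocyte (points, symlog axis with 0 at the bottom) by library, with black lines at the level of the summed cells. Ptcra is at 0 in all 5 Foxn1 1089/1089 cells and Il2ra, Rag2 and Mzb1 in 4 of them, while 4 of the 5 lie high for Id2.

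Across all genes, differences of 2-fold or more were frequent. Of 4162 genes with at least 100 UMIs over the early thymocytes, 276 were at least 2-fold higher (6.63%) and 144 lower (3.46%) in Tbx1neo2/neo2 than in the control. In Foxn1 1089/1089, 458 were higher (11.0%) and 425 lower (10.2%). Of these, 336 and 271 also had an exact interval without equality, a criterion chosen after seeing the data. It leaves out the spread between cells. The median log2 ratio of all genes was 0.14 and 0.11, so values are read beside it. For lists, genes with at least 30 UMIs were used (7425 genes, of which 11.9% were at least 2-fold higher and 3.74% lower in Tbx1neo2/neo2, and 18.3% and 13.3% in Foxn1 1089/1089), and the medians over all of them were 0.26 and 0.22. The 2 comparisons share the control library.

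By list, the genes of the DN2 and DN3 stages had a median log2 ratio of -2.30 in Foxn1 1089/1089 over 11 genes. It was -0.85 with the 3 genes at 0 UMIs set at 3 counts. Under 12 alternative settings the first value lay between -2.57 and -0.46. Of the 11, 6 were at least 2-fold lower, 3 lay above the control and 1 was at least 2-fold higher. Set at 3 counts in the same way, double-positive and mature T cell genes were lower still, at -1.22, and stress genes were at -0.78. In Tbx1neo2/neo2 the median was 0.08, with 3 of 11 lower, and it kept that sign under 9 of 14 alternative settings. Ptcra was at 23.1 against 57.0 CPM (log2 ratio -1.31, -2.04 to -0.64), and its 21 UMIs came from 3 cells, 12 of them from 1. Thy1, a surface antigen of thymocytes, was at 17.6 against 54.0 CPM and Ly6d at 0 UMIs against 60 in the control, at least 6.70-fold lower. Cd44, a hyaluronan receptor of the earliest stages, was at 43.9 against 8.09 CPM (2.44, 1.66 to 3.26).

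Receptors and targets of Notch had a median of -1.21 over 7 genes in Foxn1 1089/1089, or -0.40 with zeros at 3 counts, and 4 of 7 were at least 2-fold lower. The targets Dtx1 and Nrarp, feedback regulators of the pathway, had 0 UMIs each where the control had 55.5 and 66.9 CPM, at least 2.52-fold and 3.03-fold lower. Hes1, a target repressor, stood at 162 against 214 CPM (-0.40, -1.09 to 0.21), and Notch1, the receptor, at 103 against 86.0 CPM (0.26, -0.63 to 1.03), so neither was distinguishable from the control at this depth. Rbpj was higher, at 110 against 26.1 CPM (2.08, 1.17 to 2.90). In Tbx1neo2/neo2 Nrarp was at 103 CPM (0.63, 0.25 to 0.99), Dtx1 at 46.1 CPM (-0.27, -0.80 to 0.23), Hes1 at 306 CPM (0.52, 0.31 to 0.73), Notch1 at 111 CPM and Notch2 at 30.7 against 76.1 CPM (-1.31, -1.93 to -0.73).

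Factors of T lineage specification had medians of 0.11 in Tbx1neo2/neo2 and 0.54 in Foxn1 1089/1089 over 13 genes. In Tbx1neo2/neo2, Runx3 was at 295 against 93.7 CPM (1.66, 1.40 to 1.91) and Tox at 63.7 against 20.6 CPM (1.63), whereas Bcl11b was at 27.4 against 75.7 CPM (-1.46, -2.13 to -0.86) and Tcf7 at 326 CPM (0.41, 0.21 to 0.61). Lef1, a partner of Tcf7, stood at 54.9 against 54.8 CPM there and at 0 UMIs in Foxn1 1089/1089, at least 2.48-fold lower than the control. Ikzf1, an early lymphoid factor, was at 59.5, 116 and 176 CPM.

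Progenitor genes had medians of 0.92 and 0.53 over 10 genes, with 3 of 10 at least 2-fold higher in each mutant library, and in Foxn1 1089/1089 2 of 10 at least 2-fold lower and 4 below the control. Mef2c and Mycn were among the 3 in both, at 13.6, 47.2 and 58.8 CPM and at 14.7, 37.3 and 58.8 CPM. Kit, the stem cell factor receptor, was at 57.7 CPM in the control, 84.5 in Tbx1neo2/neo2 (0.55, 0.14 to 0.95) and 36.8 in Foxn1 1089/1089 (5 UMIs, -0.65, -2.29 to 0.60). Spi1, the myeloid and progenitor factor PU.1, was at 47.4, 79.0 and 73.5 CPM. Lmo2 and Gata2 had at most 2 UMIs in any library.

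The gamma-delta and innate list had medians of 0.55 and 1.01 over 10 genes, with 4 and 5 of them at least 2-fold higher. The Tbx1neo2/neo2 median was -0.49 with cells of 3 or more Id2 UMIs left out, 5 there and 9 in the control. Id2 is itself a gene of the list, so that fall is partly built in. Zbtb16, which encodes the factor PLZF of innate-like T cells, was at 16.5, 52.7 and 51.5 CPM. Nkg7, a gene of cytotoxic granules, stood at 253, 231 and 441 CPM and Fcer1g, a receptor signalling chain, at 415, 393 and 478 CPM. Id3, an antagonist of E proteins in gamma-delta cells, was at 16.2 against 4.39 CPM in Tbx1neo2/neo2 (-1.88, -3.82 to -0.42). Tbx21, the factor T-bet, had 0, 2 and 3 UMIs, and Eomes, Il17a, Klrb1c and Ncr1 had none in any library.

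Adaptors of receptor signalling, homing receptors and cytokine receptors had medians between 0.10 and 0.76. Lat was at 121 CPM in the control and 63.7 in Tbx1neo2/neo2 (-0.93, -1.35 to -0.52). Lcp2, the adaptor SLP-76, was at 26.5, 49.4 and 88.2 CPM. Itgb7, an integrin chain, was at 37.9, 83.4 and 198 CPM, and it had a UMI in 56 of 135, 14 of 14 and 5 of 5 cells. These cell counts were read without thinning, and they rise with the UMIs per cell, which differed between the libraries. Ccr9 had 13 UMIs in Tbx1neo2/neo2, 11 of them in 1 cell, and 1 UMI in each other library. Il7r, the receptor of the main fetal survival cytokine, was at 53.7, 71.3 and 95.6 CPM, with intervals of the log2 ratio that held 0 (-0.03 to 0.84 and -0.11 to 1.65). Pim1, a kinase gene induced by cytokines, was at 745, 384 and 294 CPM (-0.96 and -1.34).

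The fetal programme had medians of 0.30 and 0.11 over 7 genes. Hmga2, a chromatin protein of fetal progenitors, was at 132, 239 and 103 CPM. Lin28b, which blocks let-7 processing, had 22, 26 and 1 UMIs (8.09, 28.5 and 7.35 CPM). Stress and early response genes had medians of -0.63 and -1.29 over 10 genes, whose signs depended on the gate. The first was 0.92 without the innate limit, and the second was 0.74 with 2 T markers and 0.76 with Epcam allowed. Ier2 was at 298, 139 and 118 CPM and Jun at 83.4, 34.0 and 7.35 CPM, whereas Fos was at 81.6, 190 and 257 CPM. Of 6 double-positive and mature genes with enough UMIs, medians were 0.61 and -0.78.

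The 19 genes by which the study marked its early haematopoietic cluster were chosen on these same libraries and are no independent evidence. Their medians were -0.38 and -0.16. Mzb1, an endoplasmic reticulum protein, was the lowest of them in both, with 1481 UMIs in 124 of 135 control cells (544 CPM), 123 UMIs in 10 of 14 Tbx1neo2/neo2 cells (135 CPM, log2 ratio -2.01, -2.29 to -1.75) and 1 UMI in 1 of 5 Foxn1 1089/1089 cells (7.35 CPM, -6.21, -11.52 to -3.73). Crip1, a LIM domain gene, was at 3606, 1799 and 926 CPM, while Arhgdib, Coro1a and Plac8 were at or above the control level in both mutant libraries.

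**Figure D3:**
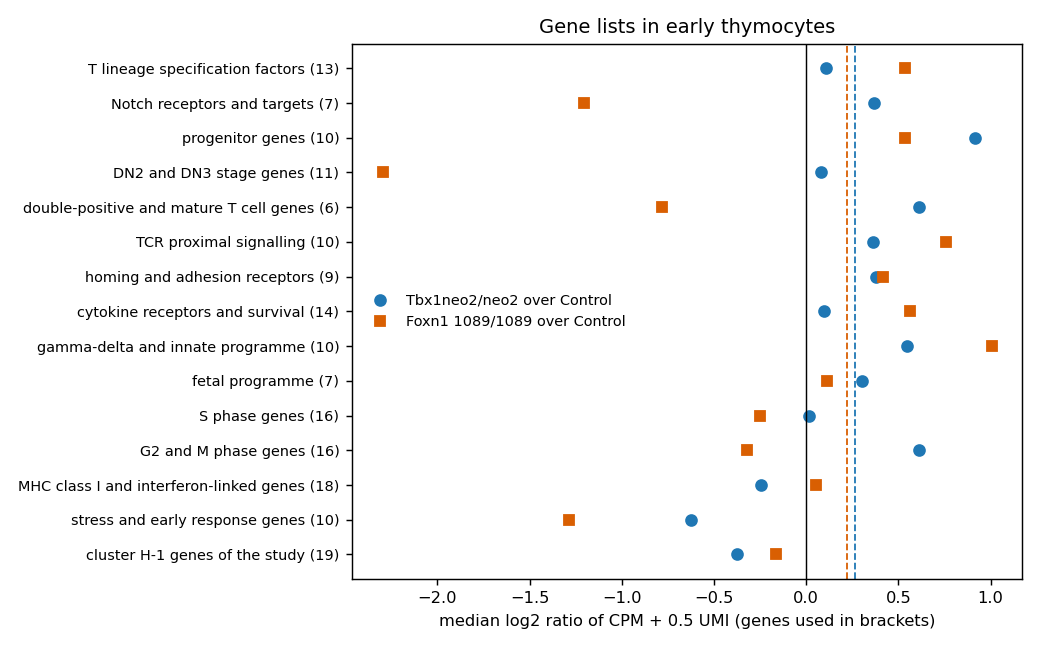
Median log2 ratio of each gene list in early thymocytes, Tbx1neo2/neo2 (circles) and Foxn1 1089/1089 (squares) over the control, with the number of genes used in brackets. Dashed lines mark the medians over all 7425 genes (0.26 and 0.22), and the DN2 and DN3 list lies at -2.30 in Foxn1 1089/1089, or at -0.85 with its 3 genes at 0 UMIs set at 3 counts.

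Ranking by size, among genes with at least 300 UMIs and at least 2 times the level of cells without Ptprc in the library where they were higher (237 genes for Tbx1neo2/neo2, 273 for Foxn1 1089/1089) gave the genes named here. A gene enters through the library where it is higher, so the ranking describes sizes and supports nothing. Slc25a5 and Hmmr in Tbx1neo2/neo2, and Tmsb4x, Celf2 and Pfn1 in Foxn1 1089/1089, were under 2 times that level in the control, and Rgcc, Lat, Vamp5, Dqx1, Bmp2k and Rasgrp2 were so in Foxn1 1089/1089. Of all 1779 genes with 300 UMIs, 4.38% were at least 2-fold higher and 3.43% lower in Tbx1neo2/neo2, and 5.79% and 8.77% in Foxn1 1089/1089. In Tbx1neo2/neo2 Mzb1 came first, followed by Gal, a neuropeptide gene, at 126 against 377 CPM (-1.58, -1.87 to -1.30), Ramp1, Fli1, Crip1, Rgcc, Bmp2k, Pim1, Lat and Nrgn, with log2 ratios between -1.26 and -0.91. Gal was carried by few cells, 62 of 135 in the control and 6 of 14 in Tbx1neo2/neo2, and its ratio without the cell of most UMIs was -2.85. The 10 highest were Cotl1, which encodes an actin-binding protein (359 against 84.5 CPM, 2.09, 1.84 to 2.34), Runx3, Tuba4a, Cd52, Pnp, Hsp90aa1, Slc25a5, Hmmr, H2-K1 and Prr13, at 1.26 or more. Without the cell of most UMIs, Cd52, a lymphocyte surface antigen, went from 1.39 to 0.94, and Runx3 from 1.66 to 1.39. Some differences were not limited to blood cells. In cells without Ptprc, Pnp stood at 64.6 CPM in Tbx1neo2/neo2 against 24.0 in the control, and Hsp90aa1 at 876 against 424 CPM. Cotl1, Slc25a5, Hmmr and Prr13 were higher there as well, while Runx3, Tuba4a, Cd52 and H2-K1 were lower.

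In Foxn1 1089/1089 the lowest were Mzb1, Rgcc, Gal, Lat, Vamp5, Dqx1, Alox5ap, Bmp2k, Rasgrp2 and Il2ra. Rgcc, a cell cycle regulator, had 0 UMIs against 166 CPM and was at least 7.52-fold lower, and Vamp5 and Dqx1 had 0 as well, at least 4.83-fold and 3.65-fold lower. Alox5ap, which activates 5-lipoxygenase, had 2 UMIs against 258 CPM (-4.14, -7.18 to -2.28). Dqx1 was carried by 21 of 135 control cells. The highest were Tmsb4x, which encodes the actin monomer binder thymosin beta-4 (12775 against 1281 CPM, 3.32, 3.23 to 3.40), Cd52 (926 against 117 CPM, 2.99, 2.68 to 3.29), Cotl1, Ikzf2, Rgs1, H2-K1, Celf2, Prr13, Pfn1 and B2m. Tmsb4x was at 4710 CPM in Foxn1 1089/1089 cells without Ptprc and at 1190 CPM in control ones, so the library difference was not limited to blood cells. Cotl1, Ikzf2, Celf2, Prr13 and Pfn1 were also higher in those cells than in control ones, while Cd52, Rgs1, H2-K1 and B2m were lower. B2m rested on 1 cell, since its log2 ratio was 1.52 with it (1.11 to 1.92) and 0.18 without, outside that interval. The other 9 of the highest stayed at 1.43 or above without their cell of most UMIs.

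The Tbx1neo2/neo2 cells differed among themselves in these genes. The 4 shallowest of the 14 cells (19061 to 44438 UMIs) had no UMI of Il2ra, Ptcra, Rag1 or Rag2, and the other 10 each had at least 1. These genes do not bear out the label of early thymocytes in the 4 cells, but a cell at the Kit-bearing DN1 stage could lack them too. In the control, 115 of 135 cells had at least 1 of these genes. The shallowest Tbx1neo2/neo2 cell had 13 UMIs of Kit, 20 of Tcf7 and 382 of Gzma, and none of Id2 or Ccl5. All 4 cells enter the summed values of this library. Of those 4, 3 held Id2 counts of 15, 21 and 21, Cd52 counts of 82, 67 and 54, and all 982 UMIs of Ccl5, 879 of them in 1 cell. Over the 10 other cells Id2 reached 8 UMIs and Ccl5 was at 0. Ccl5 was one of the 5 limiting genes of the rule, and the Tbx1neo2/neo2 level of 1078 CPM falls to 117 CPM without that 1 cell.

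Splitting the cells by 3 or more Id2 UMIs, a threshold chosen after seeing the values, separated 9 of 135 control cells, 5 of 14 in Tbx1neo2/neo2 and 4 of 5 in Foxn1 1089/1089. In the control the 9 cells had Cd52 at 900 CPM against 62.8 in the other 126, Ccl5 at 757 against 1.18, Cd69 at 161 against 33.0, and Il2ra at 22.9 against 97.4 CPM. Both first differences lay in 2 of the 9 cells, which held 152 of the 157 Cd52 UMIs and 131 of the 132 Ccl5 UMIs, and Ccl5 is a gene of the rule. In the other 7 cells Cd52 was at 33.1 CPM, below the 62.8 of the rest, while Cd69 was at 179 and Il2ra at 26.5 CPM. Their median depth was 22673 UMIs against 20762. Of all genes with 30 UMIs, 4.86% were at least 2-fold higher and 7.18% lower in the 9 cells. In Tbx1neo2/neo2 the 5 cells had Tyrobp, a signalling adaptor of natural killer cells, at 1074 against 195 CPM, Cd52 at 799 against 99.7, Runx3 at 572 against 179, and Mzb1 at 55.7 against 168 CPM. These cells were shallower there (medians 44438 and 72618 UMIs), and 3.37% of all genes were at least 2-fold higher and 5.57% lower in them. With such cells left out, 126, 9 and 1 early thymocytes remained.

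Cells with and without an Il2ra UMI were compared within a library. In the control 58 cells had one and 77 did not, at like depth (medians 20619 and 20802 UMIs). The rest of the transcriptome hardly separated them, since of 6383 genes 0.689% were at least 2-fold higher and 0.940% lower in cells with Il2ra. Dtx1 stood at 74.5 against 41.2 CPM (log2 0.85, 0.37 to 1.34). Ccl5, a gene of the rule, had no UMI in the cells with Il2ra, but 131 of its 135 UMIs lay in 2 cells. Medians of the other DN2 and DN3 genes, the Notch list and the innate list were 0.27, 0.05 and -0.10. With Il2ra read at 2000 UMIs the first was -0.009, and in Tbx1neo2/neo2 it went from 0.44 to -0.43. In Tbx1neo2/neo2, 7 cells had Il2ra and 7 did not (medians 72618 and 44438 UMIs), and the innate list stood at -1.32. Tyrobp was at 135 against 933 CPM (-2.78, -3.17 to -2.42), Runx3 at 168 against 486 CPM and Ikzf2 at 152 against 379 CPM, all lower in the cells with Il2ra. Of 4003 genes there, 3.20% were at least 2-fold higher and 3.67% lower.

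Classes by Kit and Il2ra were read after thinning each cell to 2000 UMIs. Of 135 control cells, 17 had Kit only (12.6%, 7.51 to 19.4), 17 Il2ra only, 5 both and 96 neither. In Tbx1neo2/neo2 4 of 14 had Kit only (28.6%, 8.39 to 58.1), 1 had Il2ra and 9 had neither, and all 5 Foxn1 1089/1089 cells had neither, so the shares could not be told apart at this depth. Without thinning, Kit was found in 83, 13 and 3 cells and Il2ra in 58, 7 and 1. In control mesenchymal cells, which should lack both, thinned shares were 0.806% for Kit and 0.179% for Il2ra (median depth 10104 UMIs before thinning).

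Cycling transcripts were present in all 3 libraries. After thinning, at least 3 of 16 G2 and M phase genes had a UMI in 68 of 135 control cells (50.4%, 41.6 to 59.1), 9 of 14 (64.3%, 35.1 to 87.2) and 3 of 5 (60.0%, 14.7 to 94.7). The intervals overlapped. Control mesenchymal cells gave 25.8% and control epithelial cells 48.0%. Without thinning the early thymocyte shares were 93.3%, 78.6% and 80.0%. The list medians were 0.61 and -0.32 for G2 and M phase genes and 0.02 and -0.25 for S phase genes. Mki67, a proliferation antigen, was at 121, 225 and 88.2 CPM.

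Control cells also varied among themselves. After thinning to 10000 UMIs (125 cells), the variance over the mean was 1.10 at the median of 2379 genes. It was 66.1 for Actb, the cytoplasmic actin, whose UMIs ran from 32 to 601 around a median of 141. It was 44.3 for Cd52, 37.3 for Krt18 (0 to 51, median 0) and 37.1 for Gzma (0 to 249, median 41). For Gal it was 33.4, for Ifitm1 17.7 and for Id2 11.5. Gal was found in 47 of the 125 cells and Dqx1 in 20.

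Beside other lymphoid cells, the sum of Il2ra, Ptcra, Rag1 and Rag2 did not mark early thymocytes out from all others. In the control it was 253 CPM (235 to 273) in early thymocytes, 208 CPM (188 to 229) in T marker cells over the innate limit, 326 CPM (307 to 346) in those with an Epcam UMI, and 134 CPM (124 to 145) in all innate-like lymphoid cells (Ptprc, no Epcam or C1qa, at least 3 innate genes), which hold the T marker cells over the limit too. In Tbx1neo2/neo2 it was 209 CPM (180 to 240) in early thymocytes, 207 CPM (191 to 224) in T marker cells over the limit, 370 CPM (349 to 391) in those with an Epcam UMI and 167 CPM (156 to 178) in all innate-like cells. In Foxn1 1089/1089 it was 14.7, 16.0 and, in all innate-like cells, 15.0 CPM. The 60 innate-like cells of that library had no UMI of Ptcra or Rag1 either.

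Cells that met the rule except for an Epcam UMI carried T cell genes too. There were 153 in the control, 49 in Tbx1neo2/neo2 and 8 in Foxn1 1089/1089. Their Epcam level was 98.9, 66.1 and 222 CPM, against 602, 690 and 1068 CPM in epithelial cells. Their Krt8, an epithelial keratin, was 24.4, 8.18 and 29.7 CPM against 694, 1529 and 472. Epcam and Krt8 helped to choose the epithelial cells, so these levels are a description only. At 2000 UMIs, Epcam was found in 13.1% (9.44 to 17.5) of control T marker cells and in 2.33% (1.53 to 3.39) of control mesenchymal cells, in 7.69% (2.54 to 17.0) and 3.41% (2.61 to 4.37) in Tbx1neo2/neo2, and in 14.3% (1.78 to 42.8) and 8.76% (7.80 to 9.79) in Foxn1 1089/1089. Il2ra was at 114, 140 and 162 CPM in them, and Rag1 at 44.4, 87.9 and 32.4 CPM. Of the 60 Il2ra UMIs in Foxn1 1089/1089, 44 lay in 1 cell. By Scrublet score 15, 2 and 2 of them ranked among the likely doublets.

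The 8 such cells of Foxn1 1089/1089 differed from the 5 that met the rule. Their Il2ra counts, from the shallowest cell (20379 UMIs) to the deepest (94683), were 0, 0, 1, 1, 14, 0, 0 and 44, and their Bcl11b counts 0, 0, 0, 19, 0, 0, 0 and 8. The fourth cell (41258 UMIs) had 35 UMIs of Cd3g, 10 of Cd3e, 19 of Bcl11b and 6 of Rag1, with 3 of Epcam and none of Krt8. The deepest cell had 54 UMIs of Epcam, 26 of Pax1, a pharyngeal pouch factor, and 19 of Foxn1, and was 1 of the 2 with a high doublet score. With these cells included, the Notch list stood at a median of 0.22 over the control in Foxn1 1089/1089, in place of -1.21.

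**Figure D4:**
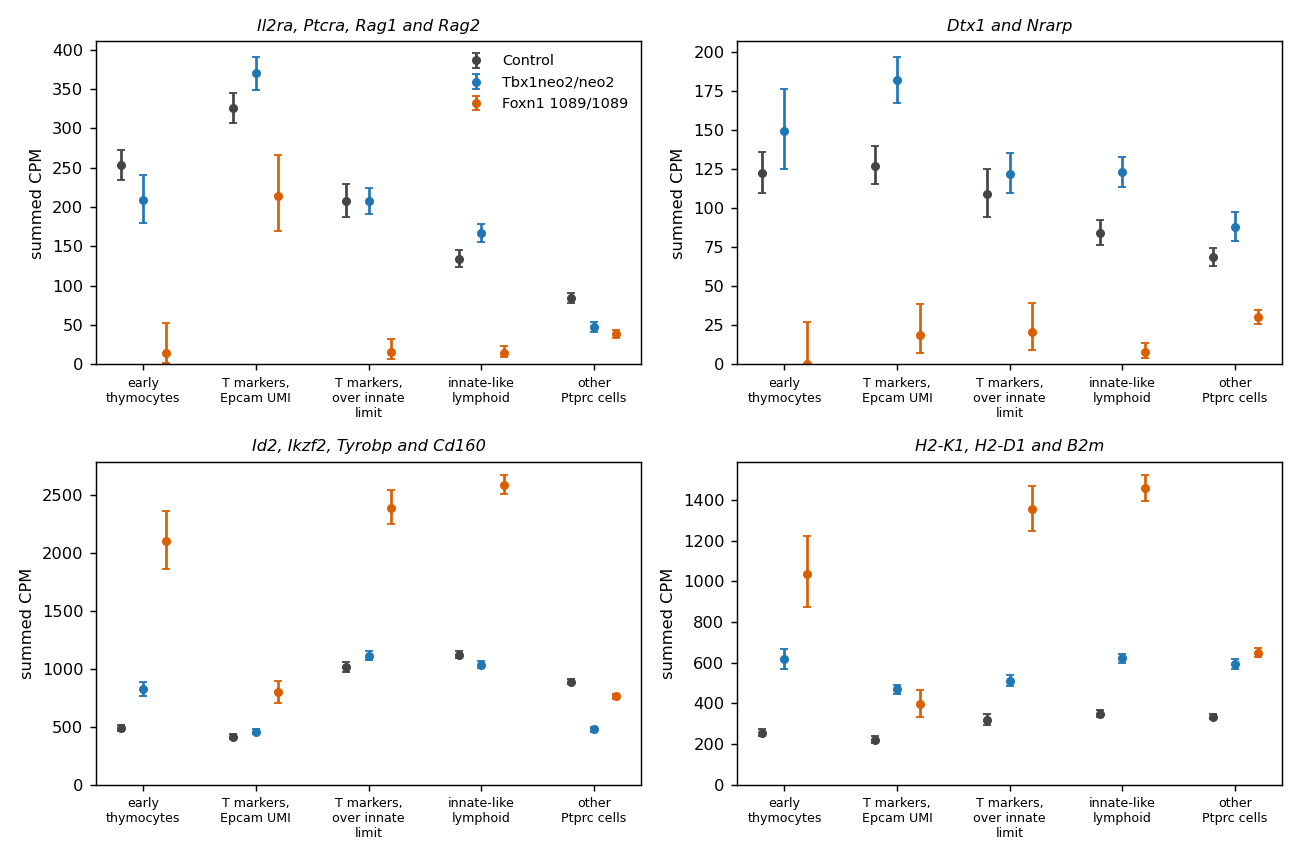
Summed CPM of 4 gene groups, chosen with their values known, in 5 kinds of cells (horizontal axis) by library, with 95% exact Poisson intervals that cover counting error only. In early thymocytes the Foxn1 1089/1089 library stands at 14.7 CPM for Il2ra, Ptcra, Rag1 and Rag2. In the 8 cells with an Epcam UMI it stands at 214 CPM, from 79 UMIs. Of these, 44 were Il2ra UMIs in 1 cell, which had a high doublet score and 54 Epcam UMIs.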

How the data were processed

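Cells of 3 single-cell 3' libraries, 1 for each genotype, were analysed. The deposited values are UMI counts per gene and cell barcode, which the authors made with Cell Ranger 3.0.0 on mm10, per the labels, and which were not normalised (27998 genes). Cells with at least 200 genes, 2000 UMIs, under 20% mitochondrial and under 5% haemoglobin UMIs were kept, and early thymocytes were selected by the stated rule. UMIs were summed per library and scaled to CPM. Log2 ratios have exact conditional binomial intervals and shares exact Clopper-Pearson intervals, both at 95%. Intervals of gene levels count UMIs as independent draws and leave out the spread between cells. With 1 library per genotype no test was made. List medians used 0.5 UMIs added to each sum. Shares that depend on depth were read after thinning to 2000 UMIs. Named genes were the 10 highest and 10 lowest by log2 ratio among genes with at least 300 UMIs and 2 times the level of cells without Ptprc, leaving out genes of the rule. The members and gene lists were chosen with earlier results of these data known. Doublets were scored with Scrublet (scanpy 1.11.5) and not removed. Scripts were tested on simulated data, and ran in Python 3.11.15 with numpy 2.4.6 and scipy 1.17.1.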

Additional observations from a re-analysis of the deposited data

How the results depend on the processing

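No paired analysis was possible because each genotype was 1 library, and no library could be left out in turn. Of the values that answer a comparison, 204 moved by less than their interval, or counts by less than 1.5 times, 57 moved by more, and 1 that was at least 2-fold changed sign. Smaller list medians changed sign more often. Over 15 lists, 21 of 208 values in Tbx1neo2/neo2 and 18 of 179 in Foxn1 1089/1089 had the opposite sign under an alternative, and 4 and 5 lists kept their sign in all. Shares of kept cells (control, Tbx1neo2/neo2, Foxn1 1089/1089) were 4.25%, 0.726% and 0.345% with 2 T markers, 4.62%, 1.73% and 0.230% with no innate limit, 0.202%, 0.168% and 0% with the rule read at 2000 UMIs, and 15.8%, 6.28% and 1.59% of cells with Ptprc and no Epcam. With all 4 T markers the control was at 1.27% and Foxn1 1089/1089 at 0%. The next 3 settings were chosen after seeing the data. The shares were 5.80%, 1.76% and 0.166% with Epcam UMIs allowed, 8.87%, 5.78% and 0.486% with neither limit, and 0.0128% for Foxn1 1089/1089 without cells of 3 or more Id2 UMIs.

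Genes at least 2-fold higher in Tbx1neo2/neo2 numbered 171 with all 4 T markers, 50 with the rule read at 2000 UMIs (34 lower), 610 without the innate limit, 492 with Epcam allowed and 176 with median ratio size factors. In Foxn1 1089/1089 they numbered 930 with Epcam allowed and 726 without the Id2 cells, and 271 were lower where the interval also had to exclude equality. With a gene minimum of 30 UMIs, 887 were higher and 278 lower in Tbx1neo2/neo2 and 1359 and 988 in Foxn1 1089/1089, and with 300 UMIs 78, 61, 103 and 156, since fewer genes were tested. Foxn1 1089/1089 has no gene values with all 4 T markers or with the rule read at 2000 UMIs, where no cell was left.

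The Notch median of Foxn1 1089/1089 reversed to 0.22 with Epcam allowed. The stress median reversed to 0.74 with 2 T markers and 0.76 with Epcam allowed. The cause was not tested. The DN2 and DN3 median of Foxn1 1089/1089 kept its sign in all 12 alternatives but ranged from -2.57 to -0.46. The innate median was 0.47 with 2 T markers, 1.80 with Epcam allowed and 0.46 without the Id2 cells in Foxn1 1089/1089, and 1.18 with the rule read at 2000 UMIs, -0.49 without the Id2 cells and 0.78 by the mean of each cell's share in Tbx1neo2/neo2. That mean gave -0.094 for Notch and -0.40 for DN2 and DN3 genes in Tbx1neo2/neo2, and the latter stood at -0.31 without genes near the free RNA level. The innate median of Tbx1neo2/neo2 cells with Il2ra over those without was -0.69 with Il2ra read at 2000 UMIs.

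Control cells with Kit and no Il2ra were 0% with the rule read at 2000 UMIs and 34.1% unthinned, and in Tbx1neo2/neo2 7.14% with another thinning seed. Control cells with Il2ra were 40% with the rule read at 2000 UMIs and 43.0% unthinned, and 50.0% in Tbx1neo2/neo2 unthinned. Control cells with G2 and M phase genes were 40.0% with the rule read at 2000 UMIs, 78.9% at 5000 UMIs and 93.3% unthinned. The 14 and 5 mutant cells set the precision of every value.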
